A study of Mus musculus with 14 samples.

Results

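The genes described here are 10 contractile genes of fast muscle fibres, taken by their symbols from the 24386 genes that the deposited tables list. They are the fast myosin heavy chain genes Myh1, Myh2 and Myh4, the myosin-binding protein gene Mybpc2, the alpha-actinin genes Actn2 and Actn3, the tropomyosin genes Tpm1 and Tpm2, the troponin I gene Tnni2 and the Z-disc gene Myoz1. They were measured by RNA sequencing of the tibialis anterior, a fast muscle of the shin, from C57Bl/6 mice. Muscles treated with follistatin were compared with control muscles. Day 3 held 4 follistatin and 3 control libraries, day 7 held 2 and 2, and day 14 held 2 follistatin libraries and 1 control library. Days 7 and 14 together form the chronic set of 4 follistatin and 3 control libraries, as the series joins them. The labels do not give age or sex, how follistatin was delivered, what the control muscles received or whether replicates came from separate animals, so every p-value measures only the spread between these libraries.

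Fast fibres shorten quickly because their thick filaments carry fast myosin heavy chains, the motor proteins that pull on actin. In mouse limb muscle these are encoded by Myh4 (type IIb), Myh1 (type IIx) and Myh2 (type IIa), which lie side by side in a cluster on chromosome 11, and IIb and IIx fibres make up most of the tibialis anterior. Mybpc2 encodes the fast form of myosin-binding protein C, which tethers the thick filament and tunes cross-bridge formation. On the thin filament tropomyosin covers the myosin-binding sites of actin, and fast troponin I, from Tnni2, holds it there until calcium arrives. Tpm1 and Tpm2 encode the alpha and beta tropomyosins. At the Z-disc, Actn3 encodes the alpha-actinin of fast fibres and Actn2 the alpha-actinin found in all fibres, and Myoz1 encodes a calsarcin that links alpha-actinin to the phosphatase calcineurin. Follistatin is a secreted protein that binds myostatin and activins, which limit muscle growth.

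Levels are given in FPKM, as the authors computed them, which divides a gene's sequenced fragments by its transcript length and by the size of the library, so levels of different genes are per length and can be set side by side. Some genes are listed at exactly 0 in muscle where they are among the most abundant messages. The authors' deposited comparison tables mark such genes HIDATA, which Cuffdiff writes where a locus holds too many fragments to be estimated. A 0 of this kind is no measurement of absence, and a gene was used in a set of libraries only where all of them lay above 0. At day 3 the mark stood on 4 genes, Myh4 among them, and 9 of the 10 fast fibre genes were used. Over the chronic libraries it stood on 31 genes, 8 of them from the list (all but Actn2 and Myoz1). There 7 of the 10 were above 0 in every library and were used, and Myh1, Myh4 and Tpm1 were not.

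Summed FPKM ranged from 486377 to 532859 over the day 3 libraries, from 364513 to 433552 over the chronic follistatin libraries and from 485755 to 510584 over the chronic controls. Read totals were not used here, so absolute depth is unknown. The spacing of the lowest values put the depth of the day 3 libraries at 0.688 to 1.27 times, and that of the chronic libraries at 1.47 to 4.66 times, that of control day 3 replicate 1. For the chronic libraries this estimate is doubtful, since only 7.47% to 11.2% of the ratios fell on the spacing used, and the highest, 4.66, was that of control day 7 replicate 1, which listed the fewest genes. Genes above 0 numbered 16158 in control day 7 replicate 1, while the other 6 chronic libraries had 19383 to 20283. Fst, the follistatin gene, lay at 49.8 to 67.8 FPKM in follistatin libraries of day 3, at 367 and 407 on day 7 and at 1315 and 1421 on day 14, against 0.808 to 1.42 FPKM in all 6 controls. Of 5 defining muscle fibre genes, Ckm, Acta1, Tnnt3 and Mylpf lay above 0 in every day 3 library, and in the chronic set all 5 were listed at 0 in follistatin libraries and Acta1, Myh4 and Tnnt3 in controls.

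At day 3 the libraries of both groups overlapped for 7 of the 9 fast fibre genes used, with Actn2 above and Tpm1 below the controls. The groups also did not overlap for 15.1% of all genes tested at day 3. None of the 9 tested passed limma's test on log2(FPKM + 1), where an adjusted p under 0.05 counts as a call and which called 1.49% of 11271 genes (0.923% rose and 0.568% fell). In the chronic set Mybpc2 rose, and 0 of the 7 tested fell, against 5.51% called of 11058 genes (2.24% rose and 3.26% fell). The genes that rose made up 40.7% of those calls, and 57.6% with rescaling by the median ratio or 56% with quantile normalization. Tpm2 stood higher and Myh2 lower in every chronic follistatin library than in any control, and both missed the threshold. Over all genes tested in the chronic set, follistatin libraries lay wholly above the controls for 8.99% and wholly below for 21.5%. The median log2 change of the 9 at day 3 was -0.08, with 1 above 0, against 0.01 over all genes tested. The median of the 7 in the chronic set was 0.32, with 6 above 0, against -0.09 over all genes tested. Genes were tested where their mean over the libraries of a set was at least 1 FPKM, and each member used passed this filter.

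**Figure D1:**
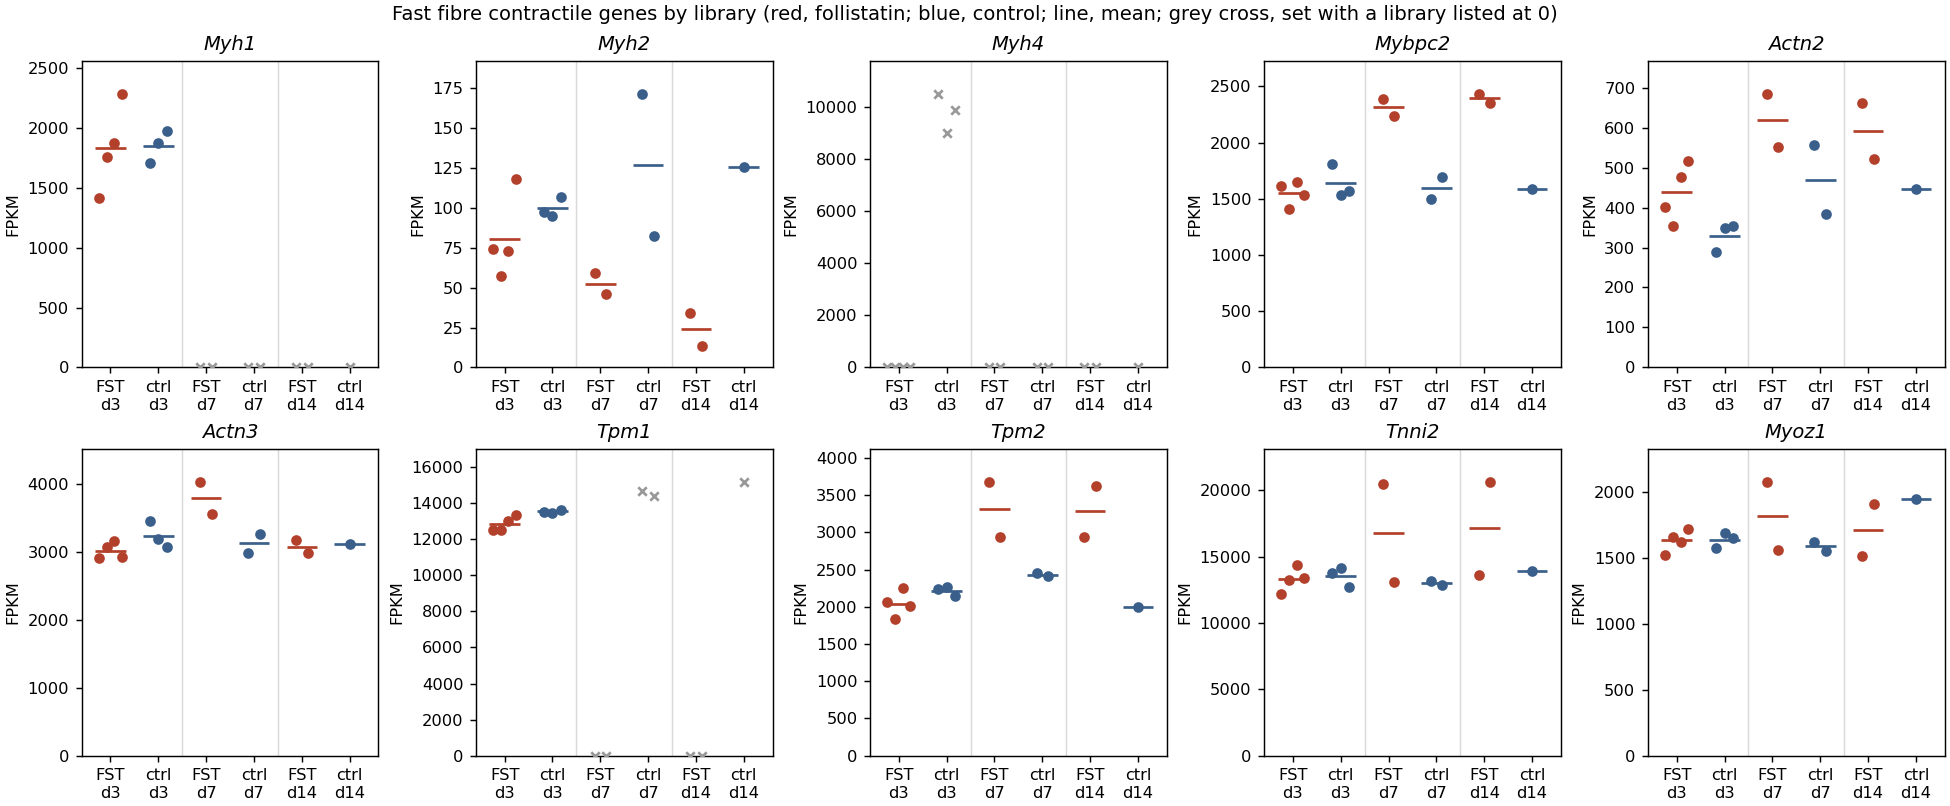
FPKM of the 10 fast fibre genes (1 panel each, linear axis from 0) in every library by treatment and day. Red points are follistatin libraries (FST), blue points controls (ctrl), lines group means, and grey crosses sets that hold a library listed at 0 and were not used. Mybpc2 and Tpm2 lie above the controls, and Myh2 below them, in all 4 follistatin libraries of days 7 and 14.

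The promoters of Mybpc2, Tpm2 and Myh2 are shown because these are the 3 members whose chronic follistatin and control libraries do not overlap. Each window runs from 250 bases before to 50 bases after the gene's start, 5′ to 3′ along the gene, from RefSeq's annotation of GRCm38.p6, where 7 of the 10 members have an entry (not Actn3, Tnni2 and Myoz1). Capitals mark matches to 5 motifs searched on both strands: the E-box CANNTG, bound by MyoD and its relatives, the M-CAT element CATTCCT, bound by TEAD factors, the TATA box TATAAA, the CArG box of SRF and the MEF2 site. The Mybpc2 window is chr7:44524620-44524919 on the minus strand, the Tpm2 window chr4:43523505-43523804 on the minus strand, and the Myh2 window chr11:67170777-67171076 on the plus strand.
Mybpc2: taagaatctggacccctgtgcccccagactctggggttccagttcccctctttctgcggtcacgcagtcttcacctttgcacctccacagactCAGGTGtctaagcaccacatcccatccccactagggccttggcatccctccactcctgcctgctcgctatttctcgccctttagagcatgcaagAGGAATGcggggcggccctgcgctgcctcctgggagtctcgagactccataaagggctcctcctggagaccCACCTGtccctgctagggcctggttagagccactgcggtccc
Tpm2: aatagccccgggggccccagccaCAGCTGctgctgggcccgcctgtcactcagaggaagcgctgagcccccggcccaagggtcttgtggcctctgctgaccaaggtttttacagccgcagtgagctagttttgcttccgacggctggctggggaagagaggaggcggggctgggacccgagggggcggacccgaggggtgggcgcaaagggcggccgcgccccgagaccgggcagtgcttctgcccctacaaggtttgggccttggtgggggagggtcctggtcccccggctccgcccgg
Myh2: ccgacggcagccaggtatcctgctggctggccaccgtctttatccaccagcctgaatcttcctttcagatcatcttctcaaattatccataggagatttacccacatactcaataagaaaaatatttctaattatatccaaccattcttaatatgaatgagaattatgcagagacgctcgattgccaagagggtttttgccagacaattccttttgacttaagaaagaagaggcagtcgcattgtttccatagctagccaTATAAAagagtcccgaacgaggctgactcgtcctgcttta
Mybpc2 holds 2 E-boxes (CAGGTG and CACCTG) and between them 1 M-CAT element, read on the other strand as AGGAATG. Tpm2 holds 1 E-box (CAGCTG) and Myh2 a TATA box, and no 2 matches overlap in these windows. Of the 7 member promoters, 5 hold an E-box, against 72.3% of all 32851 promoters, 3 a TATA box (13.6%), 2 an M-CAT element (5.36%), 2 a MEF2 site (1.86%) and 1 a CArG box (1.63%). The MEF2 matches of Myh1 and Myh4 each overlap a TATA match. These are matches of letters, and nothing follows from them about binding.

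Among the fast myosin heavy chains, Myh4 (type IIb) was the most abundant where it was measured and could not be compared. Its 3 day 3 controls held 10504, 8989 and 9883 FPKM, and it was listed at 0 in all 4 follistatin libraries of day 3 and in all 7 chronic libraries. The authors' deposited table marks it HIDATA in both sets, so no fold was taken. Myh4 lies on chromosome 11 (67238029 to 67260446, plus strand, mm10), next to Myh1 and Myh2.

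Myh1 (type IIx; chromosome 11, 67200052 to 67224575, plus strand) could be compared at day 3 only. It held 1416, 1761, 1872 and 2286 FPKM in follistatin libraries, against 1713, 1874 and 1973 FPKM in controls. The 4 follistatin libraries spread on both sides of the controls. Their means were 1834 ± 359 (SD, n = 4) and 1853 ± 131 FPKM (n = 3), with a log2 change of -0.03 (95% interval -0.36 to 0.30, adjusted p = 0.941 by limma). Every chronic library listed Myh1 at 0.

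Myh2 (type IIa; chromosome 11, 67171027 to 67197517, plus strand) was the member with the lowest level and the one that stood lower with follistatin in the chronic set. At day 3 it held 74.3, 57.4, 73.1 and 118 FPKM in follistatin libraries, against 97.6, 95.2 and 107 FPKM in controls. At day 7 it held 59.0 and 46.3 FPKM in follistatin libraries, against 172 and 82.4 FPKM in controls. At day 14 it held 34.5 and 13.5 FPKM in follistatin libraries, against 126 FPKM in the control. At day 3, 3 of the 4 follistatin libraries lay below every control and the fourth above them all, while in the chronic set the groups did not overlap. The chronic means were 38.3 ± 19.3 (SD, n = 4) and 127 ± 44.6 FPKM (n = 3), so that follistatin libraries held 0.303 of the control level. The log2 change was -1.81 (SE 0.48, 95% interval -2.91 to -0.71), and it missed the threshold after adjustment (adjusted p = 0.0638 by limma). Without follistatin day 7 replicate 1 it passed, at -2.08 (adjusted p = 0.0489 by limma). So it did without low-level or small RNA genes and with all 14 libraries in 1 fit. It lay further from the threshold without control day 7 replicate 1, at -1.56 (adjusted p = 0.236 by limma), and without the day 14 control (0.177). The same held with no filter on low values (0.184) and with robust eBayes (0.101). At day 3 the log2 change was -0.35 (adjusted p = 0.481 by limma), where the authors' deposited table gives -0.33 with a q-value of 0.0254.

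Lists of markers of other cell types differed in direction in the libraries in which Myh2 was low. The median log2 change over all genes tested in the chronic set was -0.09, and for 21.5% of them every follistatin library lay below every control. Of 5 smooth muscle and pericyte markers (Myh11, Acta2, Tagln, Rgs5 and Kcnj8), 0 were called and 0 of 5 had a log2 change above 0 in the chronic set. Their summed level was 42.2 to 101 FPKM in follistatin libraries, against 133 to 180 FPKM in controls. Rgs5 alone held 24.1 to 61.5 FPKM of it in follistatin libraries, against 78.8 to 109 FPKM in controls, and Acta2 and Kcnj8 overlapped between the groups. For 5 endothelial markers the sum was 53.4 to 99.0 FPKM in follistatin libraries, against 112 to 151 FPKM in controls, again with 0 called and 0 log2 changes above 0. Of 5 Schwann cell markers 3 were tested and 0 of them had a log2 change above 0, with 0 called. At day 14 alone Mbp of that list, a myelin gene, fell to a mean of 2.43 FPKM in follistatin libraries, against 16.8 FPKM in the single control (log2 change -2.37, adjusted p = 0.00742 by limma). Macrophage markers stood the other way, with 5 of 5 log2 changes above 0, a median of 0.45 and 0 called, at 18.5 to 44.3 FPKM in follistatin libraries, against 10.9 to 27.3 FPKM in controls. Of 5 fibroblast markers 1 had a log2 change above 0 (median -0.25), as had 1 of 2 tendon markers and the 1 satellite cell marker tested, all uncalled. No smooth muscle, pericyte or endothelial marker was at 0 in any library, and the part of these lists in the Myh2 difference was not tested. In bulk muscle, fewer cells or fibres of a type and less RNA in each cannot be told apart. The 3 genes whose levels were most like those of Myh2 over all 14 libraries, each set centred on its mean, were Ogdh (Pearson's r = 0.967), Brap (0.957) and Myh11 (0.955), out of 6870 genes whose mean reached 5 FPKM. For Myh1, over 7 day 3 libraries and 7006 genes, they were Slc25a33 (0.989), Wdsub1 (0.972) and Sphk2 (0.963). These correlations are descriptions of libraries that share a set and its depth, with no test, and Myh4 had no set without a 0 to compute one. Treatment groups were not centred, so any difference between follistatin and control libraries is part of each r.

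The myosin genes also resemble each other in sequence. Of all stretches of 50 bases in its transcripts, 30.5% of Myh1, 24.6% of Myh2 and 18.9% of Myh4 occur in transcripts of other genes as well, most often in each other. Reads from such stretches can be counted to the wrong myosin, so the levels of all 3, and above all of the scarce Myh2, are uncertain. Myh1 also shares 515 exon bases with Myhas, and Myh2 237 with 9430073C21Rik, on the opposite strand, and the strand setting is not given in the sources used here. Within a day 3 library, Myh2 stood at 5.25%, 3.26%, 3.90% and 5.18% of Myh1 in follistatin muscle, against 5.70%, 5.08% and 5.42% in controls. The groups overlap in this ratio.

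Mybpc2 (chromosome 7, 44501699 to 44524656, minus strand), the fast myosin-binding protein C, was the member that rose in the chronic set. At day 3 it held 1617, 1409, 1646 and 1538 FPKM in follistatin libraries, against 1806, 1538 and 1567 FPKM in controls. At day 7 it held 2389 and 2238 FPKM in follistatin libraries, against 1499 and 1693 FPKM in controls, and at day 14 2433 and 2353 FPKM, against 1586 FPKM in the control. The groups overlapped at day 3, while all 4 chronic follistatin libraries lay close together and well above all controls. The chronic means were 2353 ± 83.8 (SD, n = 4) and 1592 ± 97.4 FPKM (n = 3), 1.48-fold higher. The log2 change was 0.56 (SE 0.09, 95% interval 0.36 to 0.77, adjusted p = 0.0170 by limma). At day 3 it was -0.08 (SE 0.08, 95% interval -0.26 to 0.11, adjusted p = 0.721 by limma).

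The chronic rise of Mybpc2 keeps its size but not its call with fewer controls. Without control day 7 replicate 1 the log2 change was 0.52 (adjusted p = 0.134 by limma), without control day 7 replicate 2 0.61 (adjusted p = 0.0686) and without the day 14 control 0.56 (adjusted p = 0.103). Each follistatin library could be left out with the call in place, at an adjusted p of 0.0299 to 0.0435 by limma, and with no filter on low values the adjusted p was 0.181. The authors' deposited table marks Mybpc2 HIDATA in the chronic set, and its fold change there was not used. Mybpc2 shares 192 exon bases with Gm44646 on the opposite strand, a gene the tables do not list. A day 7 comparison within the chronic fit gave 0.54 (95% interval 0.16 to 0.91, adjusted p = 0.304 by limma) and day 14 gave 0.59 (95% interval 0.13 to 1.05, adjusted p = 0.266 by limma), so both days stood at a like size.

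Mybpc2 was also set against Actn3. As a share of Actn3 in the same library, Mybpc2 stood at 59.2% and 63.0% at day 7 and 76.7% and 78.8% at day 14 in follistatin muscle, against 50.2%, 51.8% and 50.8% in the 3 chronic controls. In these follistatin libraries Mybpc2 itself stayed at 2238 to 2433 FPKM over both days. Actn3, the other side of the ratio, held 3554 to 4032 FPKM at day 7 and 2987 to 3171 FPKM at day 14. At day 3 the mean share was 51.5% ± 4.05 in follistatin libraries (SD, n = 4), against 50.5% ± 2.08 in controls (n = 3). Mybpc1, the slow form of the same protein, which the tibialis anterior also expresses, did not pass the test. It averaged 857 ± 130 FPKM in chronic follistatin libraries, against 942 ± 29.1 FPKM in controls (log2 change -0.15, adjusted p = 0.486 by limma). As a share of Mybpc2, Mybpc1 stood at 32.8%, 44.6%, 38.3% and 30.4% in chronic follistatin libraries, against 63.2%, 57.2% and 57.4% in controls. At day 3 that share was 52.6% to 56.3% in follistatin libraries, against 45.0% to 55.2% in controls.

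**Figure D2:**
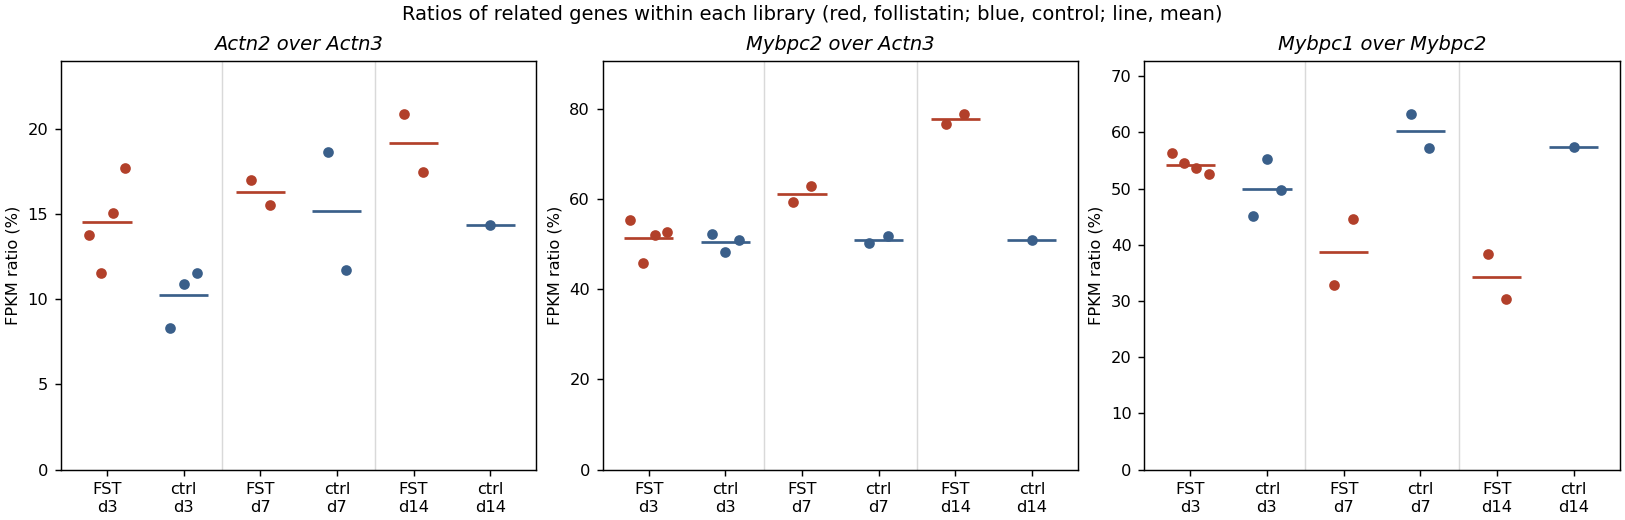
Ratios of the FPKM of related genes within each library, in percent, by treatment and day, with red points for follistatin (FST), blue points for controls (ctrl) and lines for group means. Mybpc2 over Actn3 lies at 59.2% to 78.8% in chronic follistatin libraries and at 50.2% to 51.8% in their controls, and Mybpc1 over Mybpc2 lies lower in all 4 of those follistatin libraries.

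On the thin filament, Tpm1 and Tnni2 were the 2 most abundant members at day 3, above Myh4 in the controls where it was measured. Tpm2 was the tropomyosin that could be followed throughout. Tpm1 (chromosome 9, 67022590 to 67049406, minus strand) held 12510.4, 12536, 13028 and 13353 FPKM in day 3 follistatin libraries, against 13516, 13483 and 13654 FPKM in controls. All 4 follistatin libraries lay below all 3 controls, yet the difference was small, with a log2 change of -0.08 (95% interval -0.20 to 0.04, adjusted p = 0.553 by limma). In the chronic set Tpm1 was listed at 0 in all 4 follistatin libraries and at 14678, 14402 and 15189 FPKM in the controls, and with its HIDATA mark no comparison was made.

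Tpm2 (chromosome 4, 43514711 to 43523765, minus strand) held 2065, 1834, 2248 and 2016 FPKM in day 3 follistatin libraries, against 2238, 2268 and 2150.5 FPKM in controls. At day 7 it held 3677 and 2939 FPKM in follistatin libraries, against 2449 and 2414 FPKM in controls, and at day 14 2939 and 3629 FPKM, against 1993 FPKM in the control. The groups overlapped at day 3 and did not overlap in the chronic set. The chronic means were 3296 ± 413 (SD, n = 4) and 2285 ± 254 FPKM (n = 3), 1.44-fold higher. The log2 change of 0.53 (SE 0.13, 95% interval 0.22 to 0.83) missed the threshold after adjustment (adjusted p = 0.0584 by limma). It passed with quantile normalization, at 0.54 (adjusted p = 0.0146 by limma), and was 0.43 without the day 14 control (adjusted p = 0.201 by limma). At day 3 Tpm2 stood at 15.9% ± 1.22 of Tpm1 in follistatin libraries (SD, n = 4), against 16.4% ± 0.56 in controls (n = 3).

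Tnni2 (chromosome 7, 142441808 to 142444410, plus strand), the inhibitory subunit of fast troponin, was among the most abundant messages, ranking 4 to 7 among the genes listed above 0 in day 3 libraries. It held 12148, 13230, 14393 and 13397 FPKM in day 3 follistatin libraries, against 13794, 14169 and 12682.5 FPKM in controls. At day 7 it held 20509.7 and 13077 FPKM in follistatin libraries, against 13194 and 12866 FPKM in controls, and at day 14 13638 and 20627 FPKM, against 13900.5 FPKM in the control. A pair of chronic follistatin libraries, day 7 replicate 1 and day 14 replicate 2, stood far above the rest, and the other pair lay among the controls. The chronic log2 change was 0.32 (95% interval -0.11 to 0.74, adjusted p = 0.288 by limma), and at day 3 it was -0.03 (95% interval -0.20 to 0.14, adjusted p = 0.898 by limma). Tpm2 and Myoz1 were also highest within follistatin in those same libraries. A list of 84 ribosomal protein genes, chosen after these values were seen and with at most 2 at 0 in a chronic library, summed to 32154 and 31579 FPKM in them, against 25920 and 20871 FPKM in the other chronic follistatin libraries and 20027 to 23019 FPKM in controls. The part of this in the values of Tnni2, Tpm2 and Myoz1 was not tested. Tpm2 stood above every control in the other pair of follistatin libraries too, at 2939 FPKM in both.

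**Figure D3:**
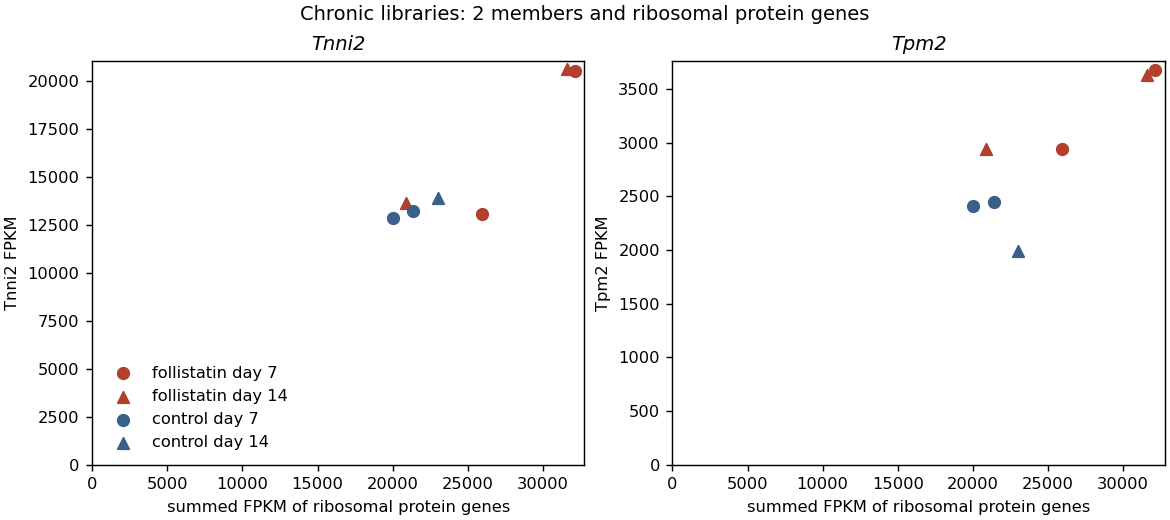
FPKM of Tnni2 (left) and Tpm2 (right) against the summed FPKM of ribosomal protein genes in the 7 chronic libraries, with linear axes from 0, red for follistatin, blue for control, circles for day 7 and triangles for day 14. The libraries with ribosomal sums of 32154 and 31579 FPKM hold the highest Tnni2 and Tpm2, and the other follistatin libraries lie among the controls for Tnni2 and above them for Tpm2.

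At the Z-disc, Actn2 stood higher on average with follistatin at each day without passing the test, and Actn3 and Myoz1 lay closer to their controls. Actn2 (chromosome 13, 12269426 to 12340760, minus strand) held 402, 355, 477 and 518 FPKM in day 3 follistatin libraries, against 288, 348 and 353 FPKM in controls. At day 7 it held 684 and 552 FPKM in follistatin libraries, against 556 and 383 FPKM in controls, and at day 14 661 and 521 FPKM, against 447 FPKM in the control. The groups barely missed each other at day 3, at 355 FPKM in the lowest follistatin library and 353 FPKM in the highest control, and in the chronic set the highest control lay above 2 of the 4 follistatin libraries. The day 3 means were 438 ± 73.2 (SD, n = 4) and 329.9 ± 36.1 FPKM (n = 3), 1.33-fold higher. The log2 change was 0.40 (SE 0.14, 95% interval 0.09 to 0.71), and it did not pass (adjusted p = 0.216 by limma, and 0.141 to 0.534 over the alternatives). The authors' deposited table gives Actn2 at day 3 a log2 fold change of 0.38 with a q-value of 0.00489, the smallest among the members. In the chronic set the log2 change was 0.39 (95% interval 0.02 to 0.77, adjusted p = 0.159 by limma), and the authors' deposited table gives 0.37 with a q-value of 0.186.

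Actn3 (chromosome 19, 4861216 to 4877909, minus strand) held 2917, 3075, 3167 and 2924 FPKM in day 3 follistatin libraries, against 3461, 3194 and 3072 FPKM in controls. At day 7 it held 4032 and 3554 FPKM in follistatin libraries, against 2986 and 3268 FPKM in controls, and at day 14 3171 and 2987 FPKM, against 3119 FPKM in the control. Follistatin libraries lay above the controls at day 7 and around the control at day 14. The log2 change was -0.10 at day 3 (95% interval -0.25 to 0.04, adjusted p = 0.514 by limma) and 0.13 in the chronic set (95% interval -0.15 to 0.41, adjusted p = 0.503 by limma). Within a library, Actn2 stood at 14.5% ± 2.57 of Actn3 at day 3 in follistatin muscle (SD, n = 4), against 10.2% ± 1.69 in controls (n = 3). Over days 7 and 14 the share was 17.7% ± 2.24 (n = 4), against 14.9% ± 3.49 (n = 3), with overlap. Only 2 stretches of 50 bases are shared between transcripts of the 2 genes.

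Myoz1 (chromosome 14, 20649107 to 20656540, minus strand) had the log2 changes nearest to 0 at day 3 and in the chronic set as a whole. It held 1523 to 1722 FPKM in day 3 follistatin libraries, against 1570 to 1691 FPKM in controls. In the chronic set it held 2074, 1562, 1516 and 1911 FPKM in follistatin libraries, against 1618, 1554 and 1946 FPKM in controls. The groups overlapped widely in both sets, and at day 14 alone both follistatin libraries lay below the control, at a log2 change of -0.19. The log2 change was -0.01 at day 3 (95% interval -0.15 to 0.14, adjusted p = 0.982 by limma) and 0.04 in the chronic set (95% interval -0.30 to 0.38, adjusted p = 0.860 by limma). The authors' deposited table gives q-values of 0.914 and 0.908 in the acute and chronic comparisons.

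**Figure D4:**
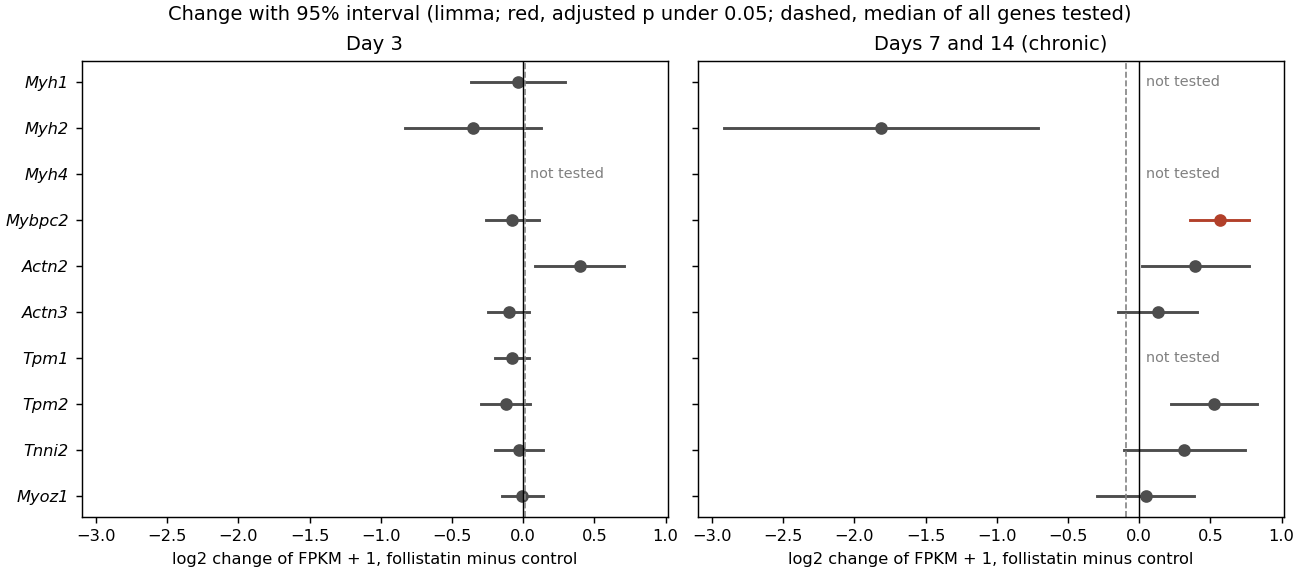
Log2 change of FPKM + 1, follistatin minus control, with 95% intervals from limma, for the members used at day 3 (left) and in the chronic set (right), and the median of all genes tested as a dashed line. Mybpc2 at 0.56 in the chronic set is the member called, Myh2 lies at -1.81 with an interval that stays below 0, and the day 3 intervals all cross 0 apart from that of Actn2.

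Counted by overlap, follistatin libraries lay wholly above or below the controls for 2 of the 9 members at day 3 (Actn2 above, Tpm1 below), against 15.1% of all genes tested (8.3% above and 6.8% below). Over days 7 and 14 they did so for 3 of 7 (Mybpc2 and Tpm2 above, Myh2 below), against 30.5% of all genes tested (8.99% above and 21.5% below). At day 7 alone they did so for 4 of 7 (Mybpc2, Tpm2 and Actn3 above, Myh2 below), against 52.2% of all genes tested (18.3% above and 33.9% below). Without regard to direction these shares lie near those of all genes. Within the chronic fit, where day 14 has 1 control that is assumed to vary like the other groups, 0 members were called at day 7 (0.217% of genes called, 0.154% higher and 0.0633% lower) and 0 at day 14 (0.506% called, 0.226% higher and 0.28% lower). Limma's unadjusted p was under 0.05 for Mybpc2 on both days and for Myh2 and Tpm2 at day 14. Myh2 stood at -1.17 at day 7 and -2.48 at day 14, a difference of -1.31 (95% interval -3.41 to 0.79, adjusted p = 0.9998 by limma), and 0 of the 7 members were called between the days, against 0.307% of genes called (0.0452% higher and 0.262% lower at day 14).

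The follistatin effect itself was compared between the chronic set and day 3 in 1 fit of all 14 libraries. That fit called 0.0884% of 11317 genes and 0 of the 7 members. By sign, the log2 change with follistatin was higher in the chronic set than at day 3 for 0.0619% and lower for 0.0265%. Mybpc2 came closest, with a chronic effect larger than that of day 3 by 0.64 on the log2 scale (SE 0.11, 95% interval 0.40 to 0.88, adjusted p = 0.0603 by limma). It passed with the filter raised to a mean of 5 FPKM (adjusted p = 0.0458 by limma) and without follistatin day 7 replicate 2 (adjusted p = 0.0471). It lay further from the threshold without control day 7 replicate 1 (adjusted p = 0.205 by limma), with no filter on low values (0.272) and with quantile normalization (0.277). For Tpm2 the difference was 0.65 (SE 0.15, adjusted p = 0.141 by limma) and for Myh2 -1.46 (SE 0.57, adjusted p = 0.276 by limma). For Actn2 it was 0.00 on the log2 scale, with a 95% interval of -0.48 to 0.47. Follistatin mRNA was higher on later days, so time and dose cannot be told apart.

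The order of the members by level is given for the day 3 controls, where all 10 were above 0. In day 3 controls Tpm1 (13483 to 13654 FPKM) lay inside the range of Tnni2 (12682.5 to 14169 FPKM), and Myh4 (8989 to 10504 FPKM) lay below both. Actn3 (3072 to 3461 FPKM) came next, then Tpm2 (2150.5 to 2268 FPKM), and then Myh1, Mybpc2 and Myoz1. Of these, Myh1 (1713 to 1973 FPKM) lay above Myoz1 (1570 to 1691 FPKM) throughout. The range of Mybpc2 (1538 to 1806 FPKM) overlapped that of each. Actn2 and Myh2 stood below those, clear of their neighbours. In day 3 follistatin libraries the ranges of Myh1 (1416 to 2286 FPKM) and Tpm2 (1834 to 2248 FPKM) overlapped, and Myh4 was listed at 0. In chronic controls Mybpc2 (1499 to 1693 FPKM) and Myoz1 (1554 to 1946 FPKM) still overlapped, while in chronic follistatin libraries Mybpc2 (2238 to 2433 FPKM) lay above Myoz1 (1516 to 2074 FPKM) throughout.

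Other genes of fast fibres, a list of 12 written with earlier results of these data known, held Mybph, whose changes were larger than those of any member. At day 3, 1 of the 12 rose and 1 fell, with a median of 0.09, and in the chronic set 1 rose and 1 fell of the 6 that could be used, with a median of -0.07, since the other 6 held a library listed at 0. Mybph, the gene that rose, encodes a relative of myosin-binding protein C and stood at 70.8 ± 20.8 FPKM in day 3 follistatin libraries (SD, n = 4), against 21.1 ± 3.93 FPKM in controls (n = 3), and at 219 ± 19.8 FPKM in chronic follistatin libraries (n = 4), against 20.7 ± 10.1 FPKM in controls (n = 3). Its log2 change was 1.67 at day 3 (adjusted p = 0.0134 by limma) and 3.45 in the chronic set (adjusted p = 0.00261 by limma). It shares 1162 exon bases with Adora1 on the opposite strand. The gene that fell was Mylk2, the skeletal myosin light chain kinase, at 229 ± 23.7 FPKM, against 476 ± 4.85 FPKM at day 3 (log2 change -1.06, adjusted p = 0.00222 by limma), and at 159 ± 24.2 FPKM, against 395 ± 43.3 FPKM in the chronic set (-1.32, adjusted p = 0.00645 by limma). Casq1, the fast calsequestrin that stores calcium, stood at 3586 ± 415 FPKM in chronic follistatin libraries, against 2555 ± 186 FPKM in controls (0.48, adjusted p = 0.0528 by limma).

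Of 20 genes listed as shared sarcomere genes, 1 rose and 1 fell at day 3 (median 0.11), and 2 rose and 1 fell among 18 in the chronic set (median 0.04). Whether each is alike in all fibre types was not tested. Lmod2, which lengthens thin filaments, fell in both, to 36.95 ± 5.03 FPKM, against 70.9 ± 6.37 FPKM in controls at day 3, and to 15.7 ± 2.81 FPKM, against 50.3 ± 7.96 FPKM in controls in the chronic set (-1.62, adjusted p = 0.00576 by limma). Pdlim3, a Z-disc protein that binds alpha-actinin, rose at day 3 (268 ± 28.0 FPKM, against 188 ± 2.92 FPKM in controls). Cryab, a small heat shock protein of the Z-disc, rose in the chronic set (1157 ± 380 FPKM, against 492 ± 7.31 FPKM in controls), and it shares 252 exon bases with Hspb2 on the opposite strand. So did Myom3, an M-band protein, at 6.22 ± 0.57 FPKM, against 3.65 ± 0.69 FPKM in controls.

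Slow fibre genes gave a single call in each set. Of 11 tested at day 3, 1 rose and 0 fell, with a median of 0.32, and of 10 tested in the chronic set 1 rose and 0 fell, with a median of -0.17. In both it was Casq2, the calsequestrin of slow and cardiac muscle, at 65.0 ± 12.7 FPKM, against 33.1 ± 4.65 FPKM in controls at day 3, and at 65.9 ± 14.5 FPKM, against 25.7 ± 4.37 FPKM in controls in the chronic set (1.31, adjusted p = 0.0123 by limma). Of 21 regulators of fibre type, 0 rose and 1 fell at day 3 (median 0.06), and 0 rose and 2 fell in the chronic set (median -0.37, 3 of 21 above 0). Over all genes tested the median was 0.01 at day 3, where 0.923% rose and 0.568% fell. It was -0.09 in the chronic set, where 2.24% rose and 3.26% fell. Tead1, the factor that binds M-CAT elements, fell to 23.9 ± 3.09 FPKM, against 36.6 ± 3.48 FPKM in controls at day 3 (-0.60, adjusted p = 0.0497 by limma), and to 14.8 ± 3.05 FPKM, against 39.8 ± 4.10 FPKM in controls in the chronic set (-1.38, adjusted p = 0.00862 by limma). Eya1, a transcriptional coactivator, fell in the chronic set to 5.22 ± 1.04 FPKM, against 8.46 ± 0.42 FPKM in controls (-0.62, adjusted p = 0.0465 by limma). The chronic calls of Mybph, Mylk2 and Lmod2 stood with any 1 library left out. Without control day 7 replicate 1 those of Tead1 and Casq2 were lost (adjusted p = 0.0657 and 0.0879 by limma), and Casq2 was also lost without the day 14 control (0.0669). Eya1 was lost without any 1 of the 7 libraries (adjusted p of 0.0526 to 0.199 by limma), Cryab without any control or follistatin day 14 replicate 1 (0.0684 to 0.148), and Myom3 without any library but follistatin day 7 replicate 1 (0.0565 to 0.148). At day 3 the call of Mylk2 stood throughout. Tead1 was lost there without any 1 of the 7 libraries (0.0582 to 0.183), Casq2 without any library but follistatin replicate 4 (0.0878 to 0.146), and Pdlim3 without any control or follistatin replicate 1 or 3 (0.0669 to 0.114). Mybph was lost at day 3 without control replicate 1 or 2 (0.0658 and 0.0617), and Lmod2 without control replicate 1 (0.0563). With no filter on low values the calls of Mybph, Lmod2, Pdlim3, Casq2 and Tead1 at day 3 were lost (adjusted p of 0.0940 to 0.217 by limma), as were those of Cryab, Myom3, Casq2 and Eya1 in the chronic set (0.0544 to 0.118). Pdlim3 at day 3 was also lost with rescaling (0.0577) and quantile normalization (0.0660), Pdlim3 and Tead1 with all 14 libraries in 1 fit (0.336 and 0.0841), and, in the chronic set, Eya1 with rescaling (0.0503) and Eya1 and Myom3 with day as a covariate (0.0649 and 0.0501).

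**Figure D5:**
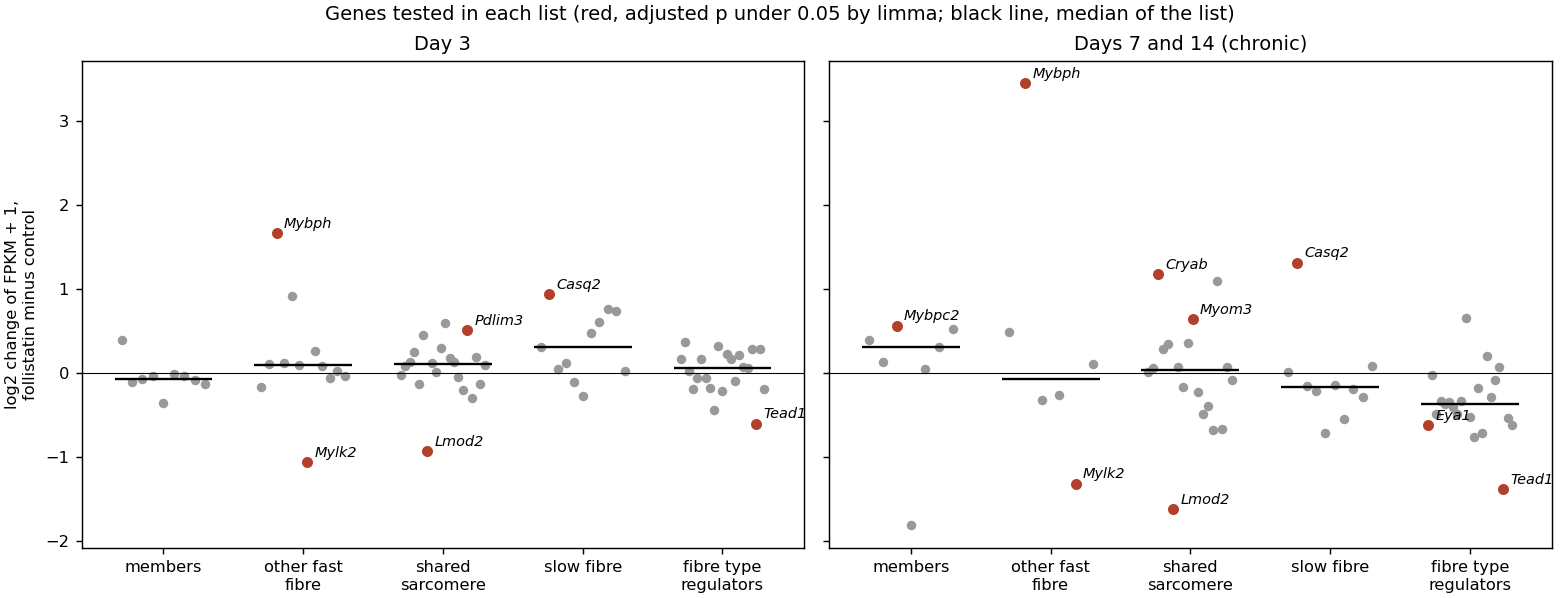
Log2 change of FPKM + 1, follistatin minus control, of each tested gene of the members and of 4 other lists, at day 3 (left) and in the chronic set (right). Red, named points were called by limma, black lines are list medians, and the members, with a chronic median of 0.32, hold 1 called gene, Mybpc2.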

How the data were processed

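RNA of 14 tibialis anterior libraries was grouped by the treatment and day of the labels. The libraries were made from polyA RNA with an Illumina TruSeq kit, per the labels' protocols. The deposited files hold FPKM per gene, computed by the authors, with TopHat, Cuffdiff and the build mm10 named in the submitters' processing notes. Versions, annotation and strand setting are not given in the sources used here. Per the file headers, 2 deposited Cuffdiff tables hold the authors' log2 fold changes, test-statistic scores, p-values and q-values for day 3 and for days 7 and 14 together.

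Of 24386 genes, 27 with symbols turned into dates were left out. Genes marked HIDATA were kept where all libraries of a set were above 0. Genes whose mean over a set reached 1 FPKM were tested. Each set had its own fit of log2(FPKM + 1) in limma 3.58.1 (R 4.3.3; eBayes, trend = TRUE), two-sided, with Benjamini-Hochberg adjustment over all genes tested. The added 1 shrinks changes of low genes. Day 7 and day 14 contrasts share the spread of 4 chronic groups, and the difference of effects between the sets was tested over all 14 libraries. The fit was tested on simulated data.

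The members and the other lists were chosen with earlier results of these data known. Named are all members, up to 4 called genes with the smallest p of each other list and the 3 genes most like each myosin. Casq1, Mybpc1 and the ribosomal protein genes were chosen after their values were seen. Positions and shared exons are from GENCODE M21. Alternatives were another pseudocount, other filters, rescaling, quantile normalization, robust eBayes, a replicate block, all libraries in 1 fit and each library left out in turn.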

Additional observations from a re-analysis of the deposited data

How the results depend on the processing

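At day 3, 0 members rose and 0 fell by limma under all 17 alternatives. In the chronic set, 2 members rose with the filter raised to 5 FPKM (Mybpc2 and Tpm2), with quantile normalization and with all 14 libraries in 1 fit, where 625 of 6616, 736 of 11058 and 2078 of 11317 genes were called, and 0 with no filter on low values, with all genes marked HIDATA left out (which leaves 2 members) and with the replicate block. There 1 member, Myh2, fell with the filter raised to 5 FPKM, without small RNA genes (961 of 10754 genes called) and with all 14 libraries. Leaving out each library gave 0 to 1 that rose and 0 to 1 that fell, with 43 to 908 of all genes called. With all 14 libraries 1 rose at day 7, and 2 rose and 1 fell at day 14. That fit called 423 of 11317 genes at day 7, and it called more genes at day 14 too, as counted below. In the difference of effects between the sets, 1 rose with the filter raised to 5 FPKM (11 of 6877 genes called). There 0 to 1 rose when each library was left out (2 to 32 of all genes called). The cause of these moves was not tested, apart from the fewer members or libraries that some settings leave. The adjusted p of Mybpc2 in the chronic set ran from 0.000573 to 0.181 over the alternatives, at log2 changes of 0.52 to 0.64.

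The members that changed sign were all uncalled. With quantile normalization these were, at day 3, Actn3 (0.11), Myh1 (0.051) and Myoz1 (0.029), Actn3 in the difference between the sets (-0.0045) and Actn2 in that between days 14 and 7 (0.061). With rescaling by the median ratio they were Actn3 at day 14 (0.051) and Actn2 in the difference between the sets (0.12), where rescaling moved the median of all genes from -0.11 to 0.00. With 1 library left out at a time, the day 3 log2 changes ran from -0.15 to 0.084 for Myh1, -0.034 to 0.027 for Myoz1 and -0.075 to 0.014 for Tnni2. Myoz1 ran from -0.037 to 0.14 in the chronic set and -0.022 to 0.39 at day 7. At day 14 Actn3 ran from -0.062 to 0.024 and Tnni2 from -0.027 to 0.57. The difference between the sets ran from -0.13 to 0.14 for Actn2 and -0.032 to 0.15 for Myoz1. That between days 14 and 7 ran from -0.29 to 0.25 for Actn2, -0.032 to 0.14 for Mybpc2 and -0.38 to 0.27 for Tnni2. Leaving out the day 14 control gives no value for day 14.

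Over all genes the counts ran from 19 (replicate block) to 266 (without small RNA genes) against 168 at day 3, and from 43 (without control day 7 replicate 1) to 2078 (all 14 libraries) against 609 in the chronic set. They ran from 9 to 423 against 24 at day 7, from 32 to 639 against 56 at day 14, from 2 to 32 against 10 in the difference between the sets and from 0 (filter raised to 5 FPKM) to 166 (no filter) against 34 in that between days 14 and 7, where 203 genes had an unadjusted p under 0.05. Calls that rose made up 44.6% at day 14 and 55.7% with rescaling, and 70% and 100% in the difference between the sets. Same-numbered day 3 libraries did not deviate together (correlations of -0.05, -0.06 and -0.03, against -0.07 to 0.09 for other pairs). This gives no sign of pairing at day 3 but cannot exclude weak pairing, and chronic libraries were not checked. With the replicate block in the chronic fit, which leaves out follistatin day 14 replicate 2, Mybpc2 stood at 0.56 (adjusted p = 0.0794 by limma) and day 3 calls no member. The block also ended the day 3 calls of Lmod2, Pdlim3 and Tead1 (0.116 to 0.216) and the chronic calls of Cryab, Myom3 and Eya1 (0.0564 to 0.123). Without counts, depth is unknown, and the few libraries and the genes listed at 0 set what can be compared.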
